A study of Mus musculus with 12 samples.

Results

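The nuclear genes of oxidative phosphorylation were followed in endothelial cells of the adult mouse cerebral cortex. Members were all genes of the count table whose symbol begins with Nduf, Sdha, Sdhb, Sdhc, Sdhd, Uqcr, Cox4i, Cox5, Cox6, Cox7, Cox8 or Atp5, which gave 98 of 21638 genes. They comprised 85 structural subunits and 13 assembly factors. Genes were tested where their counts averaged 10 or more across the 12 libraries, as held for 95 members and 12577 genes in all. The 3 members that did not pass, Cox6a2, Cox7b2 and Cox8c, are muscle or testis forms of complex IV subunits. Cox8b, the muscle form of subunit 8, passed only through some mutant libraries, since all 3 WT libraries held 0 counts of it. It remained among the 95 and so enters counts, medians and correlations over all members, structural subunits and complex IV. Its own difference from WT carries no weight.

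The libraries came from CD31-positive, CD41- and CD45-negative cells sorted from brain, with 3 libraries for each of 4 genotypes: WT, Hdac2 ECKO, Ezh2 ECKO and beta-catenin GOF. The mutants carried loxP-flanked alleles of Hdac2, Ezh2 or Ctnnb1 (Hdac2lox/lox, Ezh2lox/lox or Ctnnb1lox/lox) together with Cdh5CreERT2, a tamoxifen-inducible recombinase driven by the promoter of the endothelial cadherin gene Cdh5. Tamoxifen was given in 5 doses of 75 mg per kg, and brains were taken 2 months later. Whether the WT mice carried the Cre or received tamoxifen is not stated in the labels, nor are age, sex or whether replicates were separate animals, so p-values measure the spread between these libraries.

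Oxidative phosphorylation couples electron transport in the inner mitochondrial membrane to ATP synthesis. Complex I oxidises NADH, complex II oxidises succinate, complex III passes electrons from ubiquinol to cytochrome c, complex IV reduces oxygen, and complex V uses the resulting proton gradient to make ATP. Most complexes join a core inherited from bacteria with small accessory subunits added in eukaryotes. Core here means the complex I subunits with bacterial counterparts, all of succinate dehydrogenase (complex II), Uqcrc1, Uqcrc2 and the Rieske protein of complex III, and the catalytic head and central stalk of complex V. It is a working label, and a bacterial origin is not claimed for each core gene, Uqcrc1, Uqcrc2 and Atp5e among them. All other general subunits are called accessory, although this puts the c subunits (Atp5g1, Atp5g2 and Atp5g3) and Atp5o, which have bacterial counterparts, among them. The core of complex IV and part of the cores of complexes I, III and V are encoded by mitochondrial DNA. None of those 13 mitochondrial genes is in the count table, so they could not be analysed and do not enter the library totals. Brain endothelium depends strongly on glycolysis, but its mitochondria are also known for supporting the energy-consuming transport across the blood-brain barrier.

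Library totals ranged from 24781070 to 36109975 counts, and a count of 3 corresponded to 0.0792 to 0.118 counts per 1000000 (CPM, here with library sizes scaled by the trimmed mean of M-values). The targeted genes did not follow their labels clearly. Ezh2 was at 9.85, 5.20 and 11.7 CPM in the 3 libraries with its label and at 8.88, 2.69 and 8.69 CPM in WT, a log2 fold change of 0.40 that goes against the label, so these 3 libraries are called the Ezh2-labelled group throughout. Hdac2 differed from WT by −0.42 in Hdac2 ECKO and Ctnnb1 by −0.17 in beta-catenin GOF on the log2 scale, and none of the 3 passed (edgeR quasi-likelihood test, adjusted p 0.615 for Ezh2, 0.225 for Hdac2 and 0.962 for Ctnnb1). Hdac2 was as low in beta-catenin GOF (mean 96.2 CPM, log2 fold change −0.43) as in Hdac2 ECKO (96.5), so its level does not set the labelled libraries apart. Gene-level counts include exons outside a deleted stretch, so these levels are a limited check. Summed endothelial markers were high in all libraries (20340 to 35230 CPM over 10 of 10 genes). Summed mural cell markers, of pericytes and smooth muscle, were 71.2 to 132 CPM in WT, 146 to 359 in Hdac2 ECKO, 64.4 to 86.3 in the Ezh2-labelled group and 131 to 443 in beta-catenin GOF, and erythroid markers were 36130 to 61380, 401 to 21680, 2519 to 6664 and 510 to 35370 CPM. No marker gene of any of the 8 lists was at 0 in all libraries. In the Ezh2-labelled group, replicate 2 stood apart from the other two in a trend over gene length given below. In bulk libraries, fewer cells of a type and less RNA per cell cannot be told apart.

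Levels are comparable between genes only per length, and are given here as CPM per kb of the exon length listed in the count table, averaged over the 12 libraries. The small accessory subunits were the most abundant members, with a median of 404 CPM per kb over 58 genes, against 60.4 for the 19 core subunits, 25.9 for the 13 assembly factors and 2.58 for the 5 tested tissue isoforms. Uqcrb, a ubiquinone-binding protein of complex III, was the highest of all at 2488 CPM per kb. The highest of complex I was Ndufa1 at 1510 CPM per kb, of complex IV Cox6b1, on the side of the complex that faces cytochrome c, at 1469, and of complex V the stalk subunit Atp5h at 731. Complex II was led by an assembly factor, Sdhaf4, at 369 CPM per kb, and its lowest member was Sdhaf3 at 8.11. The lowest tested member of complex I was Ndufs1, the largest iron-sulfur subunit, at 5.30 CPM per kb. In complex III it was Uqcrc1 at 24.1 CPM per kb, in complex V Atp5d at 44.2 and in complex IV Cox8b at 0.874. The exon length joins the exons of all transcripts of a gene and can far exceed that of 1 transcript: it was 8086 bases for Ndufs1, whose longest coding transcript has 2661, and per kb of that transcript the level was 16.1.

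All members together took 2.53% to 4.08% of the counts in the WT libraries, 4.20% to 5.02% in Hdac2 ECKO, 4.41% to 5.17% in the Ezh2-labelled group and 3.86% to 4.85% in beta-catenin GOF. The share was thus highest in WT replicate 3 among the WT libraries, and in this unscaled share both ECKO groups lay above WT while beta-catenin GOF overlapped it. In scaled CPM, structural subunits summed to 24280 to 44600 in WT and 33860 to 46020 in Hdac2 ECKO. They summed to 40380 to 59880 in the Ezh2-labelled group and 36600 to 52280 in beta-catenin GOF. On that scale every mutant group overlapped WT. The accessory subunits summed to 28200 ± 10350 CPM in WT (SD, n = 3), to 37580 ± 6556 in Hdac2 ECKO, to 46090 ± 8591 in the Ezh2-labelled group and to 37530 ± 8565 in beta-catenin GOF. The core subunits summed to 4513 ± 229 CPM in WT, 3256 ± 269 in Hdac2 ECKO, 4170 ± 1305 in the Ezh2-labelled group and 4577 ± 267 in beta-catenin GOF. Core and accessory subunits are therefore kept apart below. No test was made on these sums. Summed over complex II, which has no accessory subunits in the set, the level was 1370 ± 132 CPM in WT, 1037 ± 37.5 in Hdac2 ECKO, 1308 ± 279 in the Ezh2-labelled group and 1309 ± 124.5 in beta-catenin GOF. Complex I, the largest, summed to 12380 ± 3942 CPM in WT, 14990 ± 1330 in Hdac2 ECKO, 18130 ± 4116 in the Ezh2-labelled group and 16360 ± 3152 in beta-catenin GOF. Complex III summed to 3348 ± 1298, 5050 ± 1403, 6199 ± 894 and 4443 ± 1095 CPM in the same order. WT replicate 3 was the highest WT library in all 5 complexes, which widened the SD of WT.

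**Figure D1:**
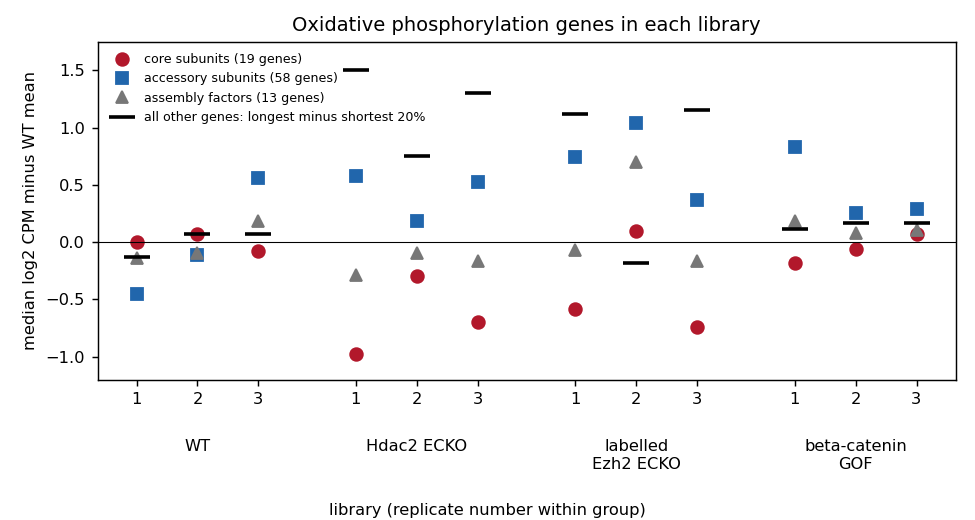
Median log2 CPM of core subunits (circles, 19 genes), accessory subunits (squares, 58 genes) and assembly factors (triangles, 13 genes) in each of the 12 libraries, relative to the mean of WT, with black bars for the median of the longest 20% of other genes minus that of the shortest 20%. Accessory subunits lie above core subunits in all 9 mutant libraries and in WT replicate 3, and below them in WT replicates 1 and 2.

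The distance between the 2 classes was measured in each library as the median log2 deviation from the WT mean of the accessory subunits minus that of the core subunits. It was −0.45, −0.18 and 0.64 in WT replicates 1 to 3. It was 1.56, 0.47 and 1.23 in Hdac2 ECKO, 1.33, 0.94 and 1.11 in the Ezh2-labelled group, and 1.02, 0.32 and 0.22 in beta-catenin GOF. All 3 Ezh2-labelled libraries were above WT, whereas Hdac2 ECKO replicate 2 and replicates 2 and 3 of beta-catenin GOF lay inside the WT range. The WT libraries spanned more than 1 log2 unit among themselves. A difference in length composition moved with part of this: the longest 20% of the other genes minus the shortest 20% was −0.13 to 0.07 in WT, at least 0.76 in each Hdac2 ECKO library, 1.12, −0.18 and 1.15 in the Ezh2-labelled group, and 0.11 to 0.17 in beta-catenin GOF. Calls with a length trend removed from each library are given further on.

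The first comparison set Hdac2 ECKO, labelled for endothelial deletion of a class I histone deacetylase, against WT. Of the 95 members tested, 6 were lower and 0 higher at an adjusted p under 0.05 (edgeR quasi-likelihood test, adjusted over all 12577 genes), beside 5.38% of all genes called lower and 3.82% called higher. The 6 were the complex I core subunit Ndufv1, the complex II membrane anchors Sdhc and Sdhd, the complex II assembly factor Sdhaf2, the complex III core subunit Uqcrc1 and the catalytic beta subunit of the ATP synthase, Atp5b. In GRCm38 coordinates of GENCODE M21 these protein-coding genes span chr19:4007384-4012806 on the minus strand (Ndufv1), chr1:171127165-171150603 on the minus strand (Sdhc), chr9:50596357-50603812 on the minus strand (Sdhd), chr19:10500534-10526142 on the minus strand (Sdhaf2), chr9:108936633-108949623 on the plus strand (Uqcrc1) and chr10:128083273-128090391 on the plus strand (Atp5b). Thus 5 of 19 core subunits and 1 of 13 assembly factors fell, and 0 of 58 accessory subunits passed. As 6 of 95, the share of members called lower was close to that of all genes.

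Sdhc anchors succinate dehydrogenase in the membrane and takes part in binding ubiquinone. It was at 269.5, 285 and 255 CPM in WT and at 68.2, 122 and 94.9 CPM in Hdac2 ECKO. All 3 Hdac2 ECKO libraries were lower than every WT library, a 2.84-fold lower level (log2 fold change −1.50, SE 0.32, adjusted p 0.032). Its partner Sdhd was at 270.4, 271 and 281 CPM in WT and at 96.4, 137 and 134 CPM in Hdac2 ECKO. The groups did not overlap and WT was tight, and the level was 2.24-fold lower (log2 fold change −1.16, SE 0.27, adjusted p 0.034). Sdhaf2, which inserts the flavin into the catalytic subunit, was at 103, 72.3 and 61.7 CPM in WT and at 37.3, 52.3 and 34.9 CPM in Hdac2 ECKO. Again no Hdac2 ECKO library reached the lowest WT value (log2 fold change −0.93, SE 0.26, adjusted p 0.042), and its counts are uncertain because it overlaps Cpsf7 on the opposite strand. The flavoprotein subunit Sdha itself did not follow: it was at 87.1, 79.3 and 71.6 CPM in WT and at 126, 94.3 and 92.5 CPM in Hdac2 ECKO, with all 3 Hdac2 ECKO libraries above WT and a log2 fold change of 0.39 that did not pass (adjusted p 0.32). The iron-sulfur subunit Sdhb had a log2 fold change of −0.56 (adjusted p 0.16) without overlap of the groups.

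Ndufv1 holds the flavin and the NADH-binding site of complex I. It was at 104, 94.2 and 65.9 CPM in WT and at 19.5, 41.5 and 24.5 CPM in Hdac2 ECKO. Replicate 2 was the highest of the Hdac2 ECKO libraries yet below WT replicate 3, and the fitted level was 3.09-fold lower (log2 fold change −1.63, SE 0.44, adjusted p 0.040). The other 6 core subunits of complex I did not pass and ranged from −0.67 for Ndufs7 to 0.01 for Ndufv2. Uqcrc1, a core protein of complex III, was at 193, 169 and 114 CPM in WT and at 21.5, 96.0 and 34.1 CPM in Hdac2 ECKO. The groups did not overlap, and the difference was 3.13-fold (log2 fold change −1.65, SE 0.48, adjusted p 0.045). Uqcrc2 and the Rieske iron-sulfur protein Uqcrfs1 were likewise lower in all 3 Hdac2 ECKO libraries, with log2 fold changes of −0.72 and −0.76 (adjusted p 0.069 and 0.090). Atp5b was at 578, 387 and 225 CPM in WT and at 109.8, 226 and 146 CPM in Hdac2 ECKO. Here Hdac2 ECKO replicate 2 overlapped WT replicate 3 although the test passed (log2 fold change −1.31, SE 0.36, adjusted p 0.041). Atp5d, the delta subunit in the central stalk of the same enzyme, was at 133, 136 and 115 CPM in WT and at 26.4, 67.5 and 27.1 CPM in Hdac2 ECKO. Its log2 fold change was the lowest of complex V, −1.66 (SE 0.52), but missed the threshold (adjusted p 0.054).

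These calls rested on the whole set of libraries. Without WT replicate 1, WT replicate 2, Hdac2 ECKO replicate 1 or Hdac2 ECKO replicate 3, 0 members were called. In the same order, 0%, 0%, 0.00798% and 0% of all genes were called, so the loss of calls was not particular to members. The log2 fold changes of the 6 stayed between −2.56 and −0.69 in all 6 fits that left out a library. Without WT replicate 3, 24 members were higher and 8 lower, beside 7.15% and 7.69% of all genes. Without Hdac2 ECKO replicate 2, 6 were higher and 12 lower, beside 7.01% and 10.6%. DESeq2 on all libraries called 3 higher and 11 lower, beside 8.27% and 11.4%.

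**Figure D2:**
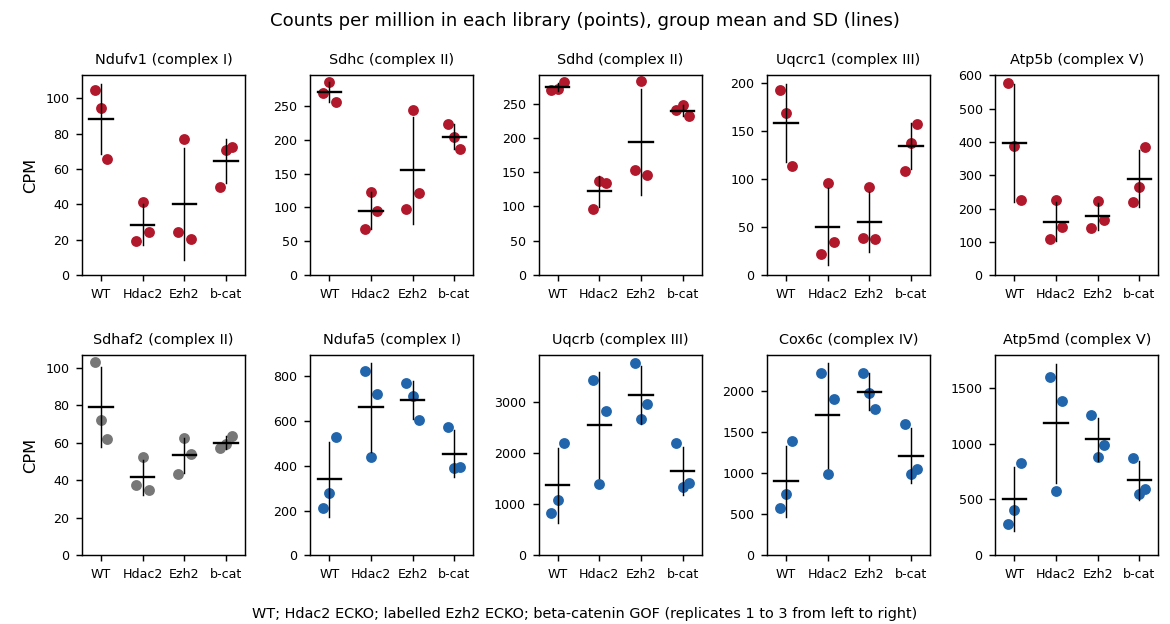
CPM in each library (points, replicates 1 to 3 from left to right) with the group mean and SD (lines) for the 6 members called lower in Hdac2 ECKO (core subunits in red, the assembly factor Sdhaf2 in grey) and for 4 accessory subunits (blue); Ezh2 stands for the Ezh2-labelled group and b-cat for beta-catenin GOF. The core subunits are lowest in Hdac2 ECKO or the Ezh2-labelled group, while the accessory subunits are highest there and WT replicate 3 lies near the mutant values.

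The proximal promoters of 4 members are shown as examples of the letters searched, 2 without a match (the called core subunits Ndufv1 and Uqcrc1) and 2 with one (the uncalled accessory subunit Uqcr11 and assembly factor Ndufaf4). Each is the 150 bases directly before the gene model of the count table (RefSeq, GRCm38.p6, 5′ to 3′ on the gene's strand, with no annotated exon inside), from chr19:4012807-4012956 on the minus strand for Ndufv1, chr9:108936483-108936632 on the plus strand for Uqcrc1, chr10:80406831-80406980 on the minus strand for Uqcr11 and chr4:24897933-24898082 on the plus strand for Ndufaf4. Capitals mark an exact match to a motif of NRF1, a known activator of respiratory genes (the letters CGCATGCG, their own reverse complement), to the ETS core CCGGAAGT or to the YY1 motif AAGATGGCG, each searched on both strands. No 2 motifs overlap in these stretches.
Ndufv1: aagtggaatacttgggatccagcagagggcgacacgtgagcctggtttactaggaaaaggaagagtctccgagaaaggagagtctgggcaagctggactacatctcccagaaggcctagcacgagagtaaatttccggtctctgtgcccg
Uqcrc1: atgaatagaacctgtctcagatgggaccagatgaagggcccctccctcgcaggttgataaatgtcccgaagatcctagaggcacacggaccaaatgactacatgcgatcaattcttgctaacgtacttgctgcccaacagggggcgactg
Uqcr11: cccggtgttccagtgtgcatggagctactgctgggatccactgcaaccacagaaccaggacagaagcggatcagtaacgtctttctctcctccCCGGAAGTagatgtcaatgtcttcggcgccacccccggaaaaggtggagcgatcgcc
Ndufaf4: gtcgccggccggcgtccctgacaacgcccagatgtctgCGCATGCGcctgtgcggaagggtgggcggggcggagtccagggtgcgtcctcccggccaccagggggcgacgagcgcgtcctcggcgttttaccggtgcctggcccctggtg
Of the 46 members with such an exon-free stretch, 3 held any of the 3 motifs, 0 of the 3 called and 3 of the 43 not called, so most uncalled members also held none and the 4 examples show no link between letters and calls. A window of 250 bases before to 50 after the RefSeq start was found for 79 of the 98 members. In it, NRF1 letters were present in 13.9% of members and in 2.07% of all 27025 genes with a window, YY1 letters in 10.1% and 1.64%, and ETS letters in 6.33% and 4.31%. Of the core subunits 1 of 14 held each motif, and of the 49 accessory subunits 8 held the NRF1, 6 the YY1 and 4 the ETS letters. A match is a description of the letters and not of a bound site.

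The accessory subunits in Hdac2 ECKO lay mostly on the other side of WT, but none passed. Their median log2 fold change was 0.40, with 43 of 58 above 0, against −0.67 for the core subunits, with 3 of 19 above 0, and 0.10 over all genes tested. The highest were Atp5md at 1.23 (SE 0.41, adjusted p 0.061) and Ndufb1-ps at 1.10 (SE 0.38, adjusted p 0.068), followed by Ndufa5 at 0.96 (adjusted p 0.070), Cox6c at 0.92 (adjusted p 0.096) and Uqcrb at 0.90 (adjusted p 0.12). Atp5md, a small protein of the membrane part of the ATP synthase, was at 281, 408 and 823 CPM in WT and at 1591, 578 and 1377 CPM in Hdac2 ECKO. The lowest Hdac2 ECKO library, replicate 2, was below WT replicate 3. Ndufa5, in the matrix arm of complex I, was at 213, 277 and 528 CPM in WT and at 822, 438 and 722 CPM in Hdac2 ECKO, with the same 2 libraries crossing. Uqcrb was at 834, 1075 and 2208 CPM in WT and at 3432, 1400 and 2831 CPM in Hdac2 ECKO, where replicate 2 again lay among the WT values. Ndufb1-ps is annotated as a long non-coding RNA in GENCODE M21, and it overlaps Cpsf2 on the opposite strand, so its counts are uncertain. At an unadjusted p under 0.05, 13 members were higher and 13 lower, beside 16.7% and 16.4% of all genes. The groups did not overlap for 20 members that were lower and 4 that were higher (Ndufb7, Ndufc1, Ndufv3 and Sdha), beside 18.2% and 19.5% of all genes.

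By complex, complex II stood lowest in Hdac2 ECKO, with a median log2 fold change of −0.74 over 8 genes and 3 above 0. Complex I had a median of 0.01 over 45 genes, complex III 0.48 over 8, complex IV 0.34 over 17 and complex V 0.17 over 17. Complex II is the complex with no accessory subunits in the set, and within complexes I, III and V the core medians were −0.37, −0.76 and −0.75 while the accessory medians were 0.37, 0.62 and 0.25. Complex IV, with 11 accessory subunits and no nuclear core, had an accessory median of 0.34. The 8 complex I assembly factors had a median of −0.15 and the 4 of complex II −0.39, from −0.94 for Sdhaf1 (adjusted p 0.12) to 0.68 for Sdhaf4 (adjusted p 0.17). The lowest of complex IV was Cox7a2l at −0.50 (adjusted p 0.20), a factor that joins complexes III and IV into supercomplexes.

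**Figure D3:**
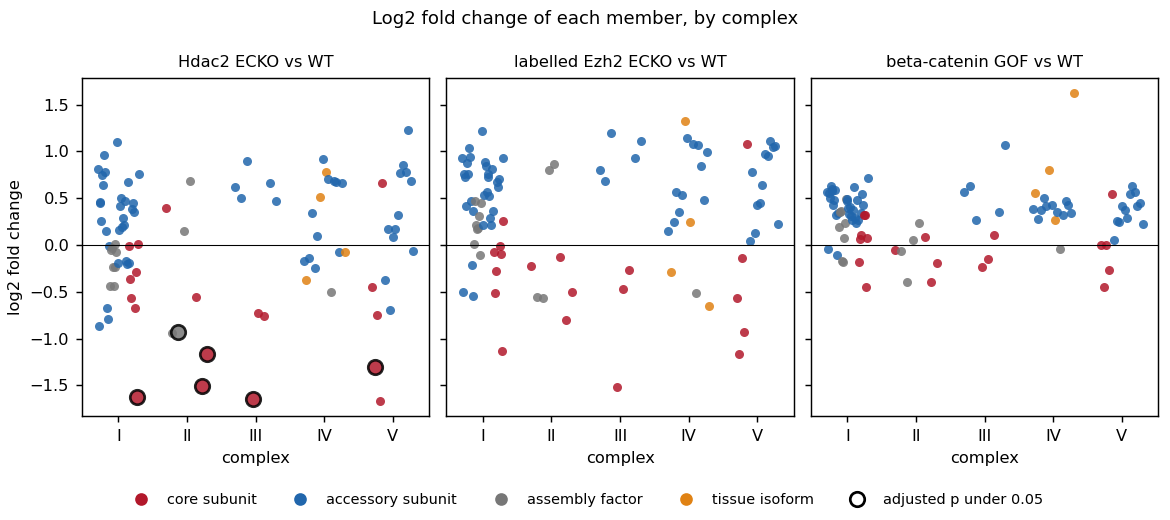
Log2 fold change against WT of each tested member, by complex and class, in the 3 mutant groups; rings mark an adjusted p under 0.05, and Cox8b, with 0 counts in WT, is left out. Core subunits (red) lie mostly below accessory subunits (blue) of the same complex, and the 6 ringed genes are all in Hdac2 ECKO.

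In the Ezh2-labelled group, where the label names the methyltransferase of Polycomb repressive complex 2, 0 of the 95 members passed, beside 0.342% of all genes called higher and 0.684% called lower. DESeq2 called 18 higher and 2 lower, beside 4.88% and 5.22%. At an unadjusted p under 0.05, 37 members were higher and 7 lower, beside 12.9% and 11.8% of all genes. Of the 37, 1 was a tissue isoform of complex IV, the class that holds Cox8b, whose difference from a WT of 0 carries no weight. Accessory subunits had a median log2 fold change of 0.71 with 55 of 58 above 0, core subunits of −0.28 with 2 of 19 above 0, and all genes of 0.05. The groups did not overlap for 28 members that were higher and 4 that were lower, beside 11.1% and 10.9% of all genes. The 28 include Cox8b, which had 0 counts in WT and passed the filter only through mutant libraries, so it carries no weight. The 4 lower ones, Atp5a1, Atp5b, Sdhc and Uqcrc1, are all core subunits.

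The highest by complex were Ndufb1-ps (1.22, adjusted p 0.086), Sdhaf4 (0.87, adjusted p 0.14), Uqcrb (1.19, adjusted p 0.095) and Atp5l (1.12, adjusted p 0.089). Uqcrb was at 3766, 2680 and 2971 CPM in these libraries, above all of WT (834, 1075 and 2208 CPM). Cox6c, a small subunit of complex IV, was at 2223, 1972 and 1775 CPM here and at 572, 744 and 1391 CPM in WT, also without overlap (log2 fold change 1.14, SE 0.36, adjusted p 0.088). Atp5l, the g subunit of the ATP synthase membrane part, was at 1346, 1331 and 1084 CPM against 371, 457 and 907 CPM in WT, again without overlap. The lowest by complex were Ndufv1 (−1.13, adjusted p 0.13), Sdhc (−0.80, adjusted p 0.14), Uqcrc1 (−1.51, adjusted p 0.087) and Atp5b (−1.16, adjusted p 0.085).

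Replicate 2 of these libraries differed from the other two in the core subunits. Ndufv1 was at 24.1, 76.7 and 20.2 CPM in replicates 1 to 3, Sdhc at 98.1, 244.5 and 122 CPM, and Uqcrc1 at 38.1, 91.2 and 37.1 CPM. In each gene replicate 2 was the highest, and for Ndufv1 it lay inside the WT range. The median deviation of the core subunits from WT was −0.59, 0.10 and −0.74 in the 3 libraries, that of the accessory subunits 0.74, 1.04 and 0.37. Without replicate 2, 1 member was called higher and 10 lower, beside 8.08% and 10.4% of all genes, and without WT replicate 3, 33 were higher and 1 lower, beside 4.5% and 4.53%. Complex II again had the lowest median, −0.36 over 8 genes, with complexes I, III, IV and V at 0.45, 0.74, 0.53 and 0.45.

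In beta-catenin GOF, in which stabilised beta-catenin is meant to keep Wnt signalling on, 0 members passed, as did 0% of all genes, and DESeq2 also called 0 members, beside 0.302% of all genes. At an unadjusted p under 0.05, 6 members were higher and 0 lower, beside 2.83% and 3.24% of all genes. Of the 6, 2 were tissue isoforms of complex IV, the class that holds Cox8b, whose difference from a WT of 0 carries no weight. The accessory subunits had a median log2 fold change of 0.41 with 56 of 58 above 0, and the core subunits of −0.00 with 9 of 19 above 0. Uqcrq, a small ubiquinone-binding subunit of complex III, was at 187, 248 and 387 CPM in WT and at 856, 471.5 and 403 CPM in beta-catenin GOF. All 3 were above WT, with replicate 3 only slightly so (log2 fold change 1.07, SE 0.37, adjusted p 0.69). Ndufv3, a flavoprotein-arm subunit of complex I, was at 164, 231 and 295.5 CPM in WT and at 466, 324 and 344 CPM in beta-catenin GOF, again without overlap (log2 fold change 0.72, SE 0.27, adjusted p 0.75). It was the highest of complex I here, and the highest of complex V was Atp5k at 0.63 (adjusted p 0.84). All 3 libraries lay below every WT library for Sdhc and Sdhd, at 223, 204.5 and 187 CPM and at 241, 247 and 231 CPM, with log2 fold changes of −0.40 and −0.19 (adjusted p 0.91 and 0.95). The groups did not overlap for 7 members that were higher and 2 that were lower, beside 6.83% and 5.87% of all genes. The 3 comparisons share the WT libraries, so a WT library that stands apart enters all of them.

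The mutants were also compared with each other, without WT. No member passed in any of the 3 comparisons, beside 0.0239% of all genes for Hdac2 ECKO against the Ezh2-labelled group, 0.0716% for beta-catenin GOF against Hdac2 ECKO and 0.0636% for beta-catenin GOF against the Ezh2-labelled group. At an unadjusted p under 0.05 the members higher and lower numbered 1 and 4 (beside 4.13% and 4.06% of all genes), 21 and 0 (beside 11.3% and 9.8%), and 3 and 3 (beside 6.15% and 7%). Of the 21 members higher in beta-catenin GOF than in Hdac2 ECKO, 12 were among the 19 core subunits, whose median log2 difference was 0.67, beside −0.07 over all genes. Other genes of like exon length, binned as in the next paragraph, had 0.44. The smallest p-values there were for Sdhd (0.97, SE 0.27) and Sdhc (1.10, SE 0.32), both at an adjusted p of 0.17. The accessory subunits there had a median of 0.08, beside 0.35 for genes of like exon length. Hdac2 ECKO minus the Ezh2-labelled group had a median of −0.28 for core and −0.32 for accessory subunits, with 87 of the 95 members below 0. Of all 12577 genes, 6119 were below 0. Genes of the members' exon length had a median of −0.32, so short genes in general were lower there. The members' median difference from them was −0.08, with 35 of 95 above. Beta-catenin GOF minus the Ezh2-labelled group had 0.37 for core and −0.22 for accessory subunits, beside 0.26 and 0.01 for genes of like exon length. The largest difference there with an unadjusted p under 0.05 was for Ndufa4l2 (2.28, SE 0.72, adjusted p 0.29).

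Members were next set against genes of like exon length, because short transcripts can shift together between libraries. Each member was compared with the median of the non-member genes in its bin, 1 of 20 equal-sized bins of exon length. The median difference was 0.37 in Hdac2 ECKO with 67 of 95 members above their bin, 0.55 in the Ezh2-labelled group with 75 above, and 0.28 in beta-catenin GOF with 82 above. For the other genes it was 0.00 in each, by construction. These medians moved with single libraries. In beta-catenin GOF the value was 0.14 without WT replicate 1, 0.18 without beta-catenin GOF replicate 1 and 0.47 without WT replicate 3, and in Hdac2 ECKO it was 0.58 without WT replicate 3. Against genes of like GC percent in place of like length, the medians were 0.07, 0.48 and 0.33, so the value of Hdac2 ECKO depended on which was matched. The accessory subunits stood 0.68, 0.69 and 0.36 above genes of like length, with 47, 55 and 58 of 58 above. This was not particular to them. Cytosolic ribosomal proteins stood 0.62, 0.84 and 0.36 above genes of like length, with 71, 77 and 76 of 83 above. For the 78 mitochondrial ribosomal proteins the differences were smaller, −0.09, 0.14 and 0.18. For the core subunits the differences were −0.14, −0.08 and 0.10, with 8, 7 and 10 of 19 above, since genes of their length also lay below WT (median −0.61, −0.36 and −0.11). The 6 called members kept low values beside genes of like length, from −1.01 for Sdhd and −1.08 for Ndufv1 to −1.30 for Sdhc, −1.36 for Atp5b and Sdhaf2, and −1.70 for Uqcrc1. When a smooth trend on exon length was removed from each library, 21 members were called higher and 3 lower in Hdac2 ECKO, beside 2.34% and 3.08% of all genes. The same fit called 4 higher and 0 lower in the Ezh2-labelled group, beside 0.763% and 1.02%, and 0 in beta-catenin GOF. Of the 21, 20 were accessory subunits. Library totals alone in place of trimmed means gave 27 higher and 3 lower in Hdac2 ECKO, beside 11.7% and 2.84% of all genes, and moved the median of all genes there from 0.10 to 0.34. The count and direction of calls in Hdac2 ECKO thus depended on the scaling, while the core median was below 0 and the accessory median above 0 in every setting run (−0.90 to −0.11 and 0.19 to 0.80).

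Coding length ordered the structural subunits more than exon length did. Over the 81 subunits with a coding sequence in GENCODE M21, the log2 fold change against WT had a Spearman correlation with the length of the longest coding sequence of −0.73 in Hdac2 ECKO, −0.76 in the Ezh2-labelled group and −0.68 in beta-catenin GOF, and of −0.29, −0.28 and −0.47 with exon length. Cox8b, with 0 counts in WT, is among the 81 and among the 22 of the shortest class below. These are correlations across genes of the same libraries, and genes are not replicates. Among the 12457 other genes with a coding sequence the values were 0.42, 0.24 and 0.12, the opposite sign, but most of these genes had 1000 or more coding bases. Among other genes under 1000 bases, medians also fell as coding length rose in each mutant group. In Hdac2 ECKO the 22 subunits with under 300 coding bases had a median log2 fold change of 0.68, the 29 with 300 or more but under 500 bases 0.32, the 19 with 500 or more but under 1000 bases −0.37 and the 11 with 1000 or more −0.72. Other genes of the same classes had medians of −0.02, −0.20, −0.48 and 0.31. Some genes, picked after their values were seen, lay apart from most of their core or accessory class and nearer to subunits of like coding length. The epsilon subunit Atp5e, a core subunit with only 156 coding bases, was at 276, 361 and 628 CPM in WT, 809, 530.5 and 660 in Hdac2 ECKO and 908, 1083 and 693 in the Ezh2-labelled group, the last without overlap (log2 fold change 1.08, SE 0.32, adjusted p 0.079). The accessory subunits Ndufa10 and Ndufa9, with 1065 and 1131 coding bases, had the lowest accessory values in Hdac2 ECKO, −0.87 and −0.79. Ndufv3 went the other way, with 1404 bases in its longest coding sequence and 0.76 in Hdac2 ECKO (adjusted p 0.074). Among core subunits alone the correlation was 0.09 in Hdac2 ECKO over 19 genes, while it was −0.65 among the 57 accessory subunits. In the Ezh2-labelled group the corresponding values were −0.28 and −0.67, and in beta-catenin GOF −0.34 and −0.47.

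**Figure D4:**
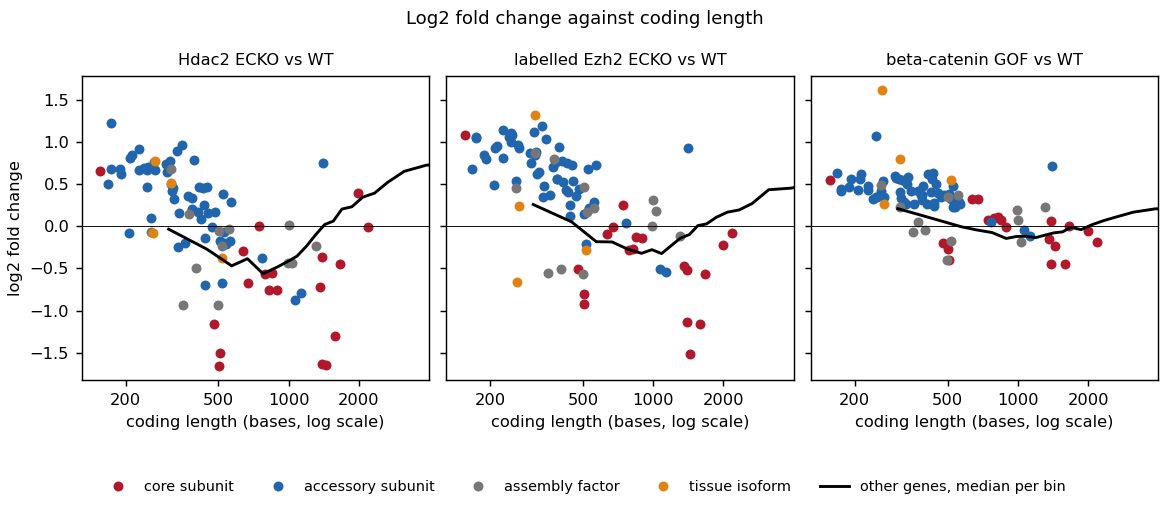
Log2 fold change against WT and length of the longest coding sequence (log scale) for each tested member with one, coloured by class, with the median of other genes in bins of coding length as a black line; Cox8b is left out. Short subunits lie mostly above the line and long core subunits mostly below it, while the line itself rises for genes over 1000 bases.

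Libraries of 1 genotype also differed along coding length, in either direction. WT replicate 3 minus WT replicate 1 had a correlation with coding length of −0.75 over the 81 subunits, and WT replicate 3 minus replicate 2 of −0.72. Beta-catenin GOF replicate 2 minus replicate 1 gave 0.73, and Hdac2 ECKO replicate 2 minus replicate 1 gave 0.61. Other sets of small proteins were ordered by coding length as well. Cytosolic ribosomal proteins (83 genes) had −0.74, −0.79 and −0.58 in Hdac2 ECKO, the Ezh2-labelled group and beta-catenin GOF, and mitochondrial ribosomal proteins (78 genes) −0.60, −0.66 and −0.74. A gradient by coding length therefore separated WT libraries from each other as well as mutants from WT, and the 2 cannot be told apart by these 12 libraries. RNA quality was not measured in the files used here.

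The paired forms of complex IV and complex V subunits were read separately. In these cells the general forms dominated: in WT, Cox4i1 was at 1001 ± 245 CPM (SD, n = 3) and Cox4i2, a form induced by low oxygen and known from lung, at 2.00 ± 0.93. Cox6a1 was at 859 ± 193 CPM while its muscle form Cox6a2 had 0 counts in 11 of the 12 libraries and 18 in beta-catenin GOF replicate 3. Cox6b1 was at 857 ± 304 CPM and the testis form Cox6b2 at 0.870 ± 0.286. Cox7a2 was at 749.7 ± 342 CPM, its relative Cox7a2l at 248 ± 46.5 and the muscle form Cox7a1 at 11.0 ± 6.44, the best expressed of the tissue forms. Cox7b was at 363 ± 184 CPM and its testis form Cox7b2 had 2 counts in 1 library. Cox8a was at 518 ± 157 CPM, while Cox8b had 28, 6 and 6 counts in the Ezh2-labelled group, 0, 10 and 0 in Hdac2 ECKO, 0, 0 and 72 in beta-catenin GOF and 0 in all WT libraries. Cox8b was thus seen in 5 of the 9 mutant libraries at counts too low to weigh, and no fold is given against a WT of 0. Cox8c had 4 counts in 1 WT library and 6 in 1 of the Ezh2-labelled group. The 3 genes for the c subunit of the ATP synthase, which encode one mature protein, were all expressed: Atp5g1 at 270 ± 54.1 CPM in WT, Atp5g2 at 221 ± 44.9 and Atp5g3 at 370 ± 93.9. Atp5g2 was lower than WT in all 3 Hdac2 ECKO libraries (−0.69, adjusted p 0.16) where Atp5g1 and Atp5g3 had 0.17 and 0.09, and none passed. Reads shared between such near-identical genes or with their pseudogenes could be split by the counting, so these levels are uncertain.

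Ndufa4, a subunit of complex IV despite its name, and its relative Ndufa4l2, which is induced by low oxygen, were also far apart in level. Ndufa4 was at 1105 ± 500 CPM in WT and at 2317, 2282 and 2014 CPM in the Ezh2-labelled group, above all of WT (log2 fold change 1.00, adjusted p 0.096). Ndufa4l2 had 534, 250 and 100 counts in beta-catenin GOF, against 60, 70 and 132 in WT, while Hdac2 ECKO had 100, 122 and 22 and the Ezh2-labelled group 60, 70 and 28. Only replicates 1 and 2 of beta-catenin GOF exceeded WT, and the log2 fold change of 1.62 did not pass (adjusted p 0.79). Ndufa4l2 and Cox4i2 are also known as pericyte genes in brain. Summed mural markers in beta-catenin GOF were 442.5, 130.5 and 139.7 CPM, so they were highest in the library with the most Ndufa4l2. Replicate 2 there had more Ndufa4l2 than replicate 3 at a lower mural sum. In Hdac2 ECKO the mural sums were 359.2, 146.3 and 262.7 CPM, above those of WT, while Ndufa4l2 was not above WT in any of its libraries. The part of mural cells in these levels was not tested.

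The rest of the pathway was read from lists of genes outside the symbol rule, whose counts stand beside 3.82% of all genes called higher and 5.38% lower in Hdac2 ECKO, and 0.342% and 0.684% in the Ezh2-labelled group. Among electron carriers and ADP/ATP exchange genes (23 tested), 2 were lower in Hdac2 ECKO, the outer-membrane channels Vdac1 (−1.45, adjusted p 0.033) and Vdac3 (−0.83, adjusted p 0.043), and 1 in the Ezh2-labelled group, the ubiquinone synthesis enzyme Coq6 (−1.49, adjusted p 0.048). The median of that list was −0.61, −0.32 and −0.03 in Hdac2 ECKO, the Ezh2-labelled group and beta-catenin GOF. Cytochrome c, Cycs, had a log2 fold change of 0.06 in Hdac2 ECKO (adjusted p 0.89). Of 20 genes of the TCA cycle and pyruvate entry, 3 were lower in Hdac2 ECKO, Idh2 (−1.47, adjusted p 0.035), Mdh2 (−1.27, adjusted p 0.048) and Idh3g (−1.01, adjusted p 0.036), and the list medians were −0.42, −0.24 and −0.09. Of 35 assembly factors outside the rule, Ttc19, which clears fragments from complex III, was higher in Hdac2 ECKO (1.37, adjusted p 0.032) and Atpaf2, which assembles the ATP synthase head, was lower (−1.26, adjusted p 0.045). Among 19 regulators of mitochondrial biogenesis, Yy1 alone passed in Hdac2 ECKO, where it was higher (1.24, adjusted p 0.049), and the medians were 0.22, 0.30 and 0.20. The upstream factors Nrf1 and Tfam had log2 fold changes of 0.34 and −0.21 in Hdac2 ECKO (adjusted p 0.38 and 0.62). Of 78 mitochondrial ribosomal proteins, 4 fell in Hdac2 ECKO, where the list median was −0.37, a share near that of all genes, and 0 passed in the other mutants, with medians of 0.01 and 0.19. Markers of other cells also differed in Hdac2 ECKO. Of 12 mural markers 5 were called higher, beside the 3.82% of all genes, and all 12 had a log2 fold change above 0. Of 5 erythroid markers 1 was called lower, beside 5.38%, and all 5 were below 0, with a median of −2.77 and sums of 401 to 21680 CPM against 36130 to 61380 in WT. Of 10 endothelial markers 7 were above 0, with a median of 0.40. Their sum was lower (20340 to 23670 CPM against 24180 to 31450 in WT) through the most abundant, Itm2a, at 13300, 11550 and 14250 CPM against 15830, 16140 and 24000 in WT. Cldn5 was also lower in every Hdac2 ECKO library, at 434.8, 1111 and 544.9 CPM against 1172, 1893 and 1407 in WT. The 9 markers other than Itm2a, Cldn5 among them, summed to 8790 to 9613 CPM against 7444 to 8595 in WT. The part of these cell types in the differences of members was not tested.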

How the data were processed

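The authors sequenced ultra-low-input mRNA libraries (SMART-Seq V4 PLUS, paired-end, per the labels' protocols). The deposited table holds whole-number counts per gene although its name calls it normalized; most counts from 10 to 50 were even (79.5% to 84.0% per library), so both mates of a pair appear to be counted. FastQC, cutadapt, STAR, featureCounts, DESeq2 and mm10 are named in the submitters' processing notes; versions, annotation and strand setting are not given in the sources used here. The table's starts and ends equalled GENCODE M21 (GRCm38) for 99.1% of genes after adding 1 to the start; 98 of 98 members matched, 1 of them (Atp5md) by position.

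Groups follow the titles. edgeR 4.0.16 (R 4.3.3) fitted a quasi-likelihood model with trimmed-mean scaling and a group term to all 12 libraries, with genes of mean count 10 or more, 6 contrasts, and Benjamini-Hochberg adjustment over all 12577 genes at 0.05. Fold changes are against WT unless another group is named, and ± is the SD. No replicates were near-identical (lowest chi-square between libraries of a group, over its degrees of freedom, 66.3). Replicate numbers did not pair the libraries (correlations of deviations −0.124 to 0.248). Settings tried as alternatives were median-ratio scaling, library totals, no filter, a filter at 50 in place of 10, DESeq2 1.42.0, only the groups compared, a replicate block, limma 3.58.1 with quality weights, removal of a length trend, and leaving out each library; removal of a length and GC trend, and likeness by coding length or GC, were added after the data were seen. Data were simulated for Hdac2 ECKO against WT with 200 of 12577 genes changed 1 log2 unit. There edgeR recovered 7% of them with 12.5% of its calls unchanged genes, so a change of that size was mostly missed. In the deposited counts 1157 of 12577 genes were called in this comparison. The adjusted threshold was thus less strict than in the simulation, and the 7% is not the detection rate for members.

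The members and lists were chosen with earlier results of these data known, and subunits were sorted into core and accessory from textbook knowledge after counts had been seen. Genes were named by rule: all members called (up to 12 a direction), the highest and lowest of each complex in fold change or level, the paired isoforms, the targeted genes, and up to 3 called genes per list; other genes named as examples, among them Ndufa5, Ndufa9, Ndufa10, Cox6c, Atp5e, Sdha and Cycs, were picked after their values were seen. Several members overlap other genes, and with the strand setting unknown their counts are uncertain: Atp5d, Atp5md, Cox6c, Ndufs1, Sdhaf2 and Uqcrb on the opposite strand among those named.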

Additional observations from a re-analysis of the deposited data

How the results depend on the processing

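In Hdac2 ECKO against WT, where 6 members passed, alternatives gave 30 with library totals alone (27 higher, 3 lower), 12 without a filter (3 higher, 9 lower), 14 with DESeq2 (3 higher, 11 lower), 57 with quality weights (36 higher, 21 lower), 24 with the length trend removed, 32 with the length and GC trend removed (26 higher, 6 lower) and 0 to 32 when a library was left out. Replicate numbers did not pair the libraries; with the number as a replicate block 10 members passed, all lower. The labelled Ezh2 ECKO count of 0 became 23 without a filter (19 higher, 4 lower), 20 with DESeq2, 2 with the replicate block, 49 with quality weights (35 higher, 14 lower), 4 with the length trend removed, 9 with the length and GC trend removed and 0 to 34 without 1 library. Beta-catenin GOF against WT and Hdac2 ECKO against the labelled Ezh2 ECKO libraries had 0 under all alternatives run. Beta-catenin GOF against Hdac2 ECKO gave 8 without a filter, 2 with DESeq2, 30 with quality weights and 0 to 2 without 1 library, and against the labelled Ezh2 ECKO libraries 2 without a filter, 10 with quality weights and 0 to 7 without 1 library. Beside these, the share of all genes called in Hdac2 ECKO and the labelled Ezh2 ECKO libraries was 11.2% and 6.72% without a filter, 42.7% and 29.8% with quality weights, 7.92% and 3.16% with the length and GC trend removed, and 14.6% and 4.26% with the block. For beta-catenin GOF against those groups it was 4.81% and 1.76% without a filter and 26.5% and 11.7% with quality weights. Against Hdac2 ECKO it was 2.6% with DESeq2 and 4.3% without Hdac2 ECKO replicate 2, the fits with 2 members called. Against the labelled Ezh2 ECKO libraries it was 5.81% without their replicate 2, the fit with 7 called. The cause of these differences was not tested. For Hdac2 ECKO, the members' median log2 fold change (0.15) moved to 0.49 with the length trend and 0.48 with the length and GC trend removed, and ranged from 0.01 to 0.40 without 1 library. For beta-catenin GOF it (0.35) was 0.18 without WT replicate 1, 0.17 without beta-catenin GOF replicate 1 and 0.66 without WT replicate 3, and for the labelled Ezh2 ECKO libraries (0.45) 0.15 without replicate 2 and 0.74 without WT replicate 3. In Hdac2 ECKO the median difference from genes of like length (0.37) turned to −0.01 without a filter, where genes of low counts enter the bins. It was 0.07 against genes of like GC percent, and otherwise stayed above 0. Each of the 6 called genes kept its direction in all 16 alternatives, with adjusted p-values of at most 0.18. A change of 1 log2 unit was seldom detected in the simulated data, where fewer genes changed than were called in Hdac2 ECKO. That rate is not the one for members, and members that did not pass are not shown to be unaltered.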

Other observations

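Of 15 glycolytic enzymes tested, the other source of ATP in these cells, 3 fell in Hdac2 ECKO: Eno1 (log2 fold change −1.84, adjusted p 0.043), Tpi1 (−1.74, adjusted p 0.043) and Gapdh (−1.69, adjusted p 0.036). That stands beside 5.38% of all genes called lower there. Gapdh was at 426, 355 and 260 CPM in WT and at 70.2, 180 and 73.3 CPM in Hdac2 ECKO, with replicate 2 the highest of the 3, as for Uqcrc1 and Atp5b. The list medians were −0.93 in Hdac2 ECKO, −0.77 in the Ezh2-labelled group and −0.21 in beta-catenin GOF, with 12 of 15 genes below 0 in each; the 3 comparisons share the WT libraries.

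Among 15 genes that respond to low oxygen, the histone demethylase Kdm3a was higher in Hdac2 ECKO (0.94, adjusted p 0.036), and Pdk1, a kinase that holds pyruvate dehydrogenase inactive, was higher in the Ezh2-labelled group (1.89, adjusted p 0.048), at 13.7, 16.1 and 30.4 CPM against 5.34, 5.86 and 5.02 CPM in WT. These are 1 gene each, beside 3.82% of all genes called higher in Hdac2 ECKO and 0.342% in the Ezh2-labelled group. The list medians were −0.16, 0.28 and 0.32. Of 83 cytosolic ribosomal proteins, Rpl38 was higher in Hdac2 ECKO (1.15, adjusted p 0.044), and Rpl29 and Rpl7l1 were lower (−1.17 and −1.32, adjusted p 0.042 and 0.041), both shares below those of all genes (3.82% and 5.38%); the list medians were 0.29, 0.72 and 0.33.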
